A study of Arabidopsis thaliana with 51 samples.

Results

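Seedlings of the ethylene-insensitive Arabidopsis thaliana line ein2-1 that had been exposed to the bacterial peptide elf18 for 10 h were compared with untreated seedlings of the same line. The comparison rests on 6 of the 51 arrays of the series, 3 of ein2 after 10 h of elf18 and 3 of ein2 at 0 h, and takes in every transcript measured. The other groups used here, with 3 arrays each, were ein2 after 2 h of elf18, wild type (WT) after 10 h of elf18 and at 0 h, and efr-1 after 10 h of elf18 and at 0 h. To examine 1 array that stood apart, the remaining groups were used as well. These were WT after 2 h of elf18, ein2 after 2 h of the plant peptide Pep2, WT after 2 h and 10 h of Pep2, and the lines bak1-3 and pepr1-1 Pepr2-3 (labelled p1p2) at 0 h and after 2 h and 10 h of Pep2. All seedlings grew for 5 to 6 days on agar and for another 5 to 6 days in liquid medium with sucrose, in days split evenly between 12 h light and 12 h dark. Treated seedlings received 1 µM of the peptide as whole seedlings, and the 0 h seedlings received none. Each mutant was represented by 1 allele, and each array by 1 biological replicate per the study's design. No seedlings without peptide were sampled at 2 h or 10 h, so the effect of the peptide and that of 10 more hours cannot be told apart within a line.

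The peptide elf18 is a fragment of bacterial elongation factor Tu, and plants of the cabbage family perceive it through the receptor kinase EFR. Perception starts pattern-triggered immunity, in which calcium influx and protein kinases act upstream of WRKY transcription factors, secreted peroxidases and other defence genes. EIN2 is a membrane protein of the endoplasmic reticulum that passes the ethylene signal from the hormone receptors to the transcription factor EIN3, and ein2 mutants do not respond to ethylene. Elicited plants produce ethylene, and EIN3 with its relatives is known to sustain the expression of some immune receptors. The efr line lacks the elf18 receptor, and its arrays after 10 h of elf18 show what changes without perception of the peptide. EIN2, BAK1, PEPR1, PEPR2 and FLS2 were not analysed here.

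Levels are the authors' log2 expression values, on which a difference of 1 is a 2-fold difference. The table goes down to 2.08, with 27.4% of its values no more than 0.1 above that floor. Detection calls were not used, so the size of a change to or from that value depends on the background correction. Array medians lay between 6.04 and 6.15, and precision is set by having 3 arrays per group. Of the probe sets, 14568 reached a level of 5 on at least 3 arrays and were tested with limma over all 51 arrays. A probe set counted as called, and a transcript as having risen or fallen, when its Benjamini-Hochberg adjusted p was below 0.05 and the difference was 2-fold or more. Changes are log2 differences with the standard error (SE) of that fit. Among the probe sets tested, 7791 genes had a probe set paired with that gene alone, and only those are named.

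The 3 treated ein2 arrays were not alike. The array labelled replicate 1 correlated at 0.979 and 0.977 with replicates 2 and 3, which correlated at 0.993 with each other, across the 14568 probe sets. In the other 16 groups such correlations ran from 0.985 to 0.993. Replicate 1 lay at least 2-fold from replicate 2 at 533 probe sets and from replicate 3 at 576, against 130 between replicates 2 and 3. Such counts ran from 95 to 393 in the other 16 groups.

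Transcripts that mark the ein2 line showed where replicate 1 lay. Those lower by at least 1 on the log2 scale in the 11 other ein2 arrays than in all 39 arrays of other lines numbered 24, and at 12 of them replicate 1 exceeded the range of the other ein2 arrays by at least 1. The count was repeated for each of the other 11 ein2 arrays. Each time the set was defined anew from the remaining ein2 arrays, replicate 1 among them, which left 10 transcripts. The result was 0 of 10 for every array, over a set that is not the same as the 24. Of 16 transcripts higher in ein2 than in all other lines, replicate 1 fell below the ein2 range by at least 1 at 0.

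**Figure D1:**
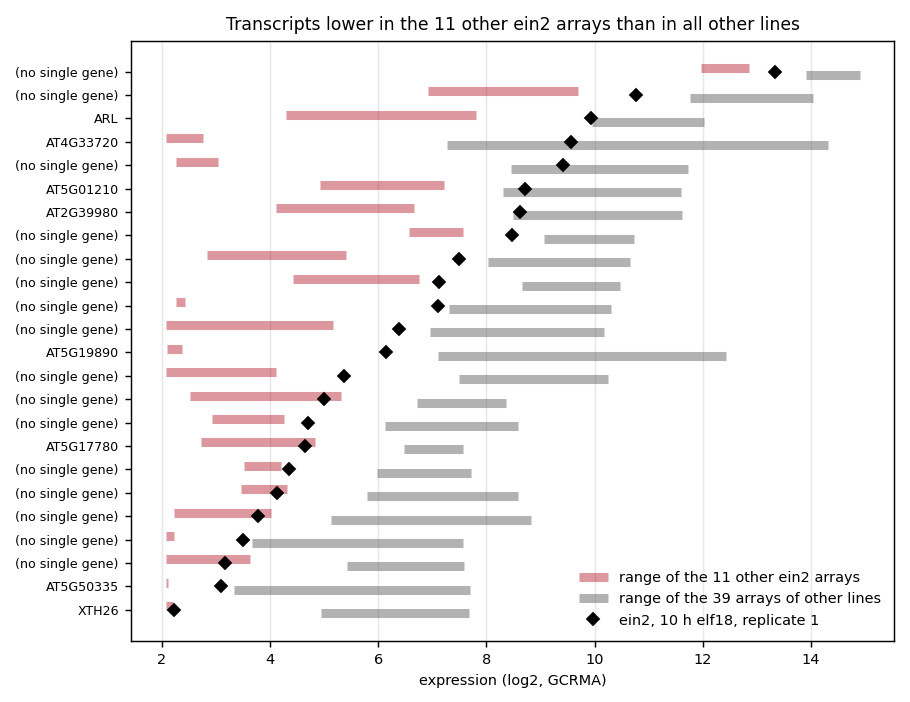
Expression (log2, x axis) of 24 transcripts that were lower in the 11 other ein2 arrays than in all arrays of other lines; red bars give the range of the 11 other ein2 arrays, grey bars the range of the 39 arrays of other lines, and diamonds the array of ein2 at 10 h of elf18 labelled replicate 1. Most diamonds stand between the 2 bars, as at AT5G19890 (6.15), while the diamond of AT4G33720, at 9.57, lies within the grey bar that starts at 7.28.

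AT4G33720, which encodes a secreted protein of the PR1 family, stood at 9.57 in replicate 1, against 2.44 and 2.08 in replicates 2 and 3. The peroxidase gene AT5G19890 stood at 6.15, against at most 2.32 in replicates 2 and 3. ARL, an organ growth gene, stood at 9.93, against 5.53 and 4.76, and AT2G39980 at 8.63, against 5.01 and 4.11. All 4 are high in WT, where AT4G33720 reached 11.90, 12.01 and 11.13 and ARL averaged 11.11 ± 0.09 (SD, n = 3) at 10 h of elf18.

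BGLU27, a beta-glucosidase gene, was at 7.49 in replicate 1 and at the lowest value, 2.08, in replicates 2 and 3. It averaged 10.3 ± 0.39 in ein2 and 9.99 ± 0.32 in WT after 2 h of the plant peptide Pep2 (SD, n = 3 each), and stood at 2.08 in WT after 10 h of elf18. The defensin-like gene LCR67 was at 6.43 in replicate 1 and at 2.08 in the other treated arrays. It read 6.06, 5.97 and 5.02 in untreated ein2, and it varied as widely within ein2 after 2 h of Pep2, with 6.25, 2.51 and 5.55. On the other side, AT1G73120 stood at 7.08 in replicate 1, against 9.83 and 10.04, and AT1G80320 at 2.62, against 4.89 and 5.38. QQS, which acts in the balance of carbon and nitrogen, stood at 3.25, against 4.59 and 5.39. AT1G80320 and QQS also varied within other ein2 groups, with 2.08, 3.94 and 5.27 at AT1G80320 after 2 h of elf18. In untreated ein2 QQS read 5.42, 7.76 and 4.42. The genes named here and in the paragraph before were picked for the widest gap of replicate 1.

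Across all probe sets, the deviation of replicate 1 from the mean of replicates 2 and 3 correlated most with the step toward several groups sampled after 2 h of a peptide. Its correlation with the step from that mean to another group's mean was 0.714 for bak1 after 2 h of Pep2, 0.700 for WT and 0.617 for ein2 after the same treatment, and 0.574 for WT after 2 h of elf18. It was lower, at 0.406, for p1p2 after 2 h of Pep2, against 0.427 for untreated p1p2, 0.429 for untreated WT and 0.44 for untreated bak1. Both quantities share the mean of replicates 2 and 3, which raises such a correlation, and these values are descriptions. The same measure for replicates 2 and 3 toward bak1 after 2 h of Pep2 was -0.434 and -0.341. What set replicate 1 apart was not tested. Results were also computed without it, and a call that was lost is given beside the gene or list.

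After 10 h of elf18, 1828 probe sets had risen and 1868 had fallen in ein2, which is 12.5% and 12.8% of those tested. Without replicate 1 the counts were 1866 and 1938 (12.8% and 13.3%), and 1747 of the higher and 1793 of the lower calls were shared by both fits. Among the named genes 953 rose and 912 fell. In 1797 of the 1828 higher and 1846 of the 1868 lower calls, the 3 treated arrays lay wholly to 1 side of the 3 untreated ones. Over all probe sets tested, 28.8% lay wholly above and 38.3% wholly below. Of the 31 higher calls whose arrays overlapped, 22 were lost without replicate 1, and of the 22 such lower calls, 1 was lost.

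Markers of pattern-triggered immunity rose in ein2. Of 18 genes on that list 7 were named and measured, and all 7 were higher, with a median change of 3.95, against -0.09 over all probe sets. WRKY53, a transcription factor gene of early defence, stood at 10.89, 10.19 and 10.24 in treated ein2, against 5.60, 7.33 and 4.63 in untreated ein2. The groups did not overlap although the untreated arrays were spread widely, and the change was 4.59 (SE 0.42, adjusted p = 3.2e-12). PUB22, whose product is a U-box ubiquitin ligase that dampens immune signalling, stood at 10.62, 10.86 and 10.62 in treated ein2, against 6.37, 6.58 and 6.78 in untreated ein2. Those arrays were tight in both groups and lay 4.12 apart (SE 0.16, adjusted p = 9.5e-23). Its relatives PUB24 and PUB23 rose by 3.73 and 2.88, and the transcription factor genes WRKY22 and WRKY6 by 3.95 and 3.07. The member STZ, a zinc finger repressor gene of stress responses, changed by 4.24 in ein2 and by 3.83 in efr, and was the only one of the 7 called in efr, where 8.09% of all probe sets were called higher. The other 6 were higher in the ein2 response than in the efr response by the test of that difference, which called 11.1% of all probe sets higher. None of the 7 differed between the responses of ein2 and WT by the test that called 4.52% of all probe sets.

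The elf18 receptor gene itself rose. EFR stood at 6.49, 6.66 and 6.76 in treated ein2, against 3.88, 3.54 and 3.38 in untreated ein2. The groups lay well apart, by 3.04 (SE 0.22, adjusted p = 9e-15), and the change in WT was 3.72. The difference between the responses of ein2 and WT, -0.68 (SE 0.32), did not pass the test (adjusted p = 0.15). In efr the EFR transcript averaged 2.17 after 10 h of elf18 and was at most 2.29 at 0 h, near the lowest value of the table. SD1-29, which encodes a receptor kinase for bacterial medium-chain fatty acid compounds, rose by 4.01, and BIK1, a cytoplasmic kinase gene that acts below several pattern receptors, rose by 2.09. Replicate 1 did not stand apart at BIK1, where the treated arrays read 10.83, 10.76 and 10.63, against 8.77, 8.75 and 8.44 in untreated ein2.

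Genes for secreted peroxidases, enzymes that make and use hydrogen peroxide in the cell wall, held the largest increase. PRX52 stood at 12.81, 12.67 and 11.93 in treated ein2, against 2.11, 2.23 and 2.11 in untreated ein2. It was near the lowest value in all untreated arrays and among the brighter transcripts after treatment, a change of 10.32 (SE 0.31, adjusted p = 2.4e-26). In efr it stayed near the lowest value, with a change of 0.01 (SE 0.31). Of 16 peroxidase genes on the list 11 were measured, and 8 rose and 0 fell, against 12.5% and 12.8% of all probe sets, with a median change of 3.75. AT5G39580 stood at 13.32, 13.43 and 13.35 in treated ein2, against 5.13, 5.01 and 5.83 in untreated ein2, a change of 8.04. The 3 that did not pass were AT5G19890, AT5G06730 and AT2G37130, with changes of 1.22, 0.37 and -0.04.

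The peroxidase genes did not all match WT. AT5G19880 stood at 7.42, 7.09 and 6.57 in treated ein2, and its change of 4.94 exceeded that of WT by 2.75 (SE 0.39, adjusted p = 6.6e-06). AT5G64120 also rose more in ein2, by 1.17, although both lines ended near the same level, since ein2 was lower at 0 h by 1.25. AT1G14550 rose less in ein2 than in WT by 2.41 (SE 0.74, adjusted p = 0.029), a call that was lost without replicate 1.

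Berberine bridge enzyme-like genes encode secreted flavin enzymes, some of which oxidise cell wall fragments. All 7 measured members rose, with a median change of 4.46, and 6 of them without replicate 1 (12.5% of all probe sets rose, and 12.8% without replicate 1). AT1G26410 stood at 9.31, 9.99 and 9.56 in treated ein2, against 2.46, 2.28 and 2.28 in untreated ein2. Its neighbours AT1G26420 and AT1G26380 rose by 6.71 and 6.51, and both fell in efr, by 1.68 and 1.71. AT1G26390 passed only through replicate 1: it read 6.68, 3.33 and 2.68 in treated ein2, against 2.68, 2.68 and 2.08 in untreated ein2. These genes form a cluster of similar sequences, and cross-hybridisation between their probe sets was not tested.

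Other large increases came from many families. AT2G17740 and AT2G44370 encode proteins with cysteine- and histidine-rich C1 domains and rose by 9.77 and 8.16. AT2G17740 stood at 12.49, 12.76 and 12.42 in treated ein2, against 3.05, 3.13 and 2.18 in untreated ein2, so that the groups lay far apart. The aspartyl protease gene AT5G48430 rose by 8.28, the 2-oxoglutarate-dependent dioxygenase gene AT2G36690 by 7.90, and AT3G18250 by 8.98. Genes of calcium and ion handling were CHX16, a cation and proton exchanger gene, at 7.11, and AT3G47480, for an EF-hand calcium-binding protein, at 7.04. Among regulators, AT2G42360, for a RING-type ubiquitin ligase, and AT2G22880, for a VQ-motif protein, rose by 7.01 and 6.87.

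Some of these increases were shared with seedlings lacking the receptor. AT4G22470, of the lipid transfer protein family, stood at 12.16, 11.73 and 11.89 in treated ein2, against 2.69, 3.57 and 2.69 in untreated ein2, a change of 8.94 (SE 0.54, adjusted p = 2.4e-17). It also rose by 5.00 in efr, and the ein2 change exceeded that by 3.95 (SE 0.76, adjusted p = 3.7e-05). AT4G12500, for a similar lipid transfer-like protein, rose by 7.29 in ein2 and by 4.24 in efr. CHX16 rose by 3.02 in efr. The esterase-like gene AT2G39400, of the alpha/beta-hydrolase family, rose by 6.80 in ein2 and 2.14 in efr.

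**Figure D2:**
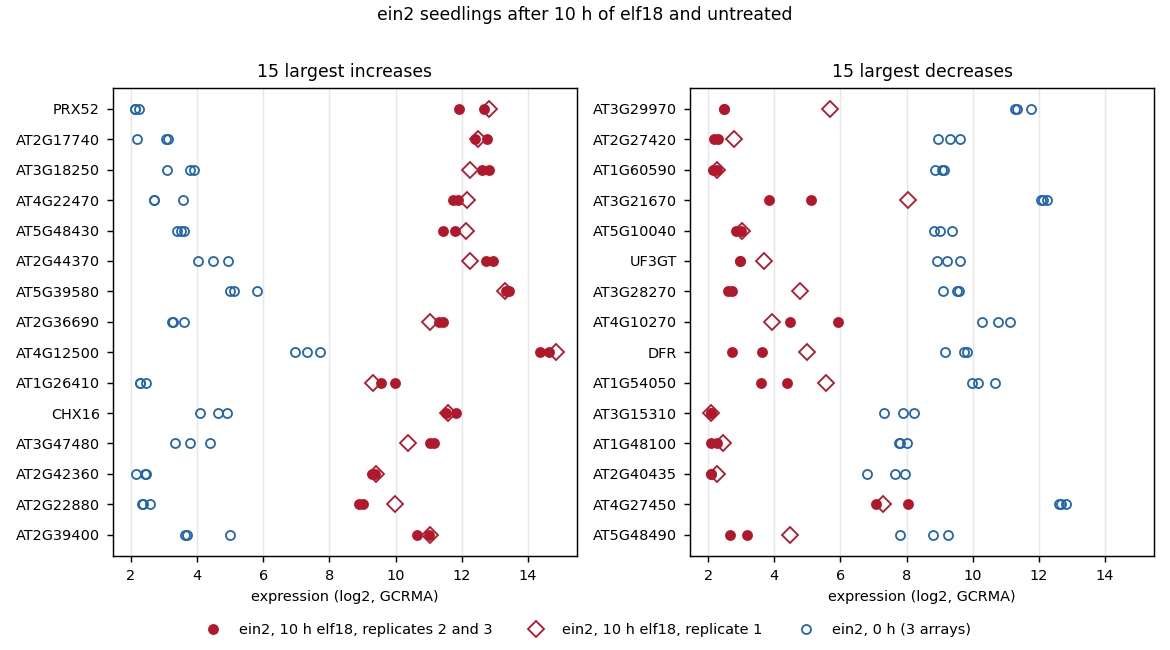
Expression (log2, x axis) in ein2 of the 30 named genes that changed most after 10 h of elf18, 15 upward and 15 downward; filled red points are replicates 2 and 3, open red diamonds replicate 1, and open blue circles the 3 untreated ein2 arrays. Genes were taken only where treated and untreated arrays did not overlap, and the diamond stands well above the other treated arrays at AT3G29970 (5.68) and AT3G21670 (8.04).

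Anthocyanin and flavonoid genes fell. Of 18 genes on that list 4 were measured, all 4 fell (12.8% of all probe sets did), and the median change was -5.30. DFR, the dihydroflavonol reductase of anthocyanin synthesis, stood at 4.99, 3.63 and 2.71 in treated ein2, against 9.82, 9.74 and 9.16 in untreated ein2. The groups lay far apart, with replicate 1 the highest of the treated arrays, and the change was -5.80 (SE 0.65, adjusted p = 6e-10). UF3GT, which adds xylose to anthocyanins, stood at 3.69, 2.96 and 2.98 in treated ein2, against 9.61, 9.21 and 8.91 in untreated ein2, and AT4G14090, an anthocyanin glucosyltransferase gene, fell by 4.80. UGT78D2, which glucosylates flavonoids earlier in the pathway, fell by 2.08 and also by 1.49 in efr. DFR and AT4G14090 rose in efr, by 1.85 and 2.40, and UF3GT changed there by 0.67 without passing the test.

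The fall began from a higher level in ein2 than in WT. Untreated ein2 exceeded untreated WT by 3.19 at DFR, 3.27 at UF3GT and 3.93 at AT4G14090, each of which passed the test. At 10 h of elf18 ein2 and WT stood at 3.78 and 2.44 at DFR and at 3.21 and 2.19 at UF3GT, and neither difference passed. The larger fall of ein2 was called at UF3GT (-2.25, SE 0.64, adjusted p = 0.019) and AT4G14090 (-3.62, SE 0.54, adjusted p = 1.5e-05) and not at DFR (-1.85, SE 0.92, adjusted p = 0.19). UF3GT and DFR in WT ended near the lowest value of the table, 2.08, which limits the fall that could be measured there. This limit also holds at AT4G14090, where WT fell by 1.17 from its lower level at 0 h. At 10 h ein2 read 2.90, 3.35 and 2.57 at that gene and lay 0.30 above WT, which was not called.

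AT3G10040, for a trihelix repressor of the low-oxygen response, was the only measured member of a list of 10 low-oxygen genes. It changed by -3.98 in ein2, -2.38 in WT and -3.69 in efr, and was called lower in each. The difference between the responses of ein2 and WT, -1.60, was called, with a level 1.61 higher in untreated ein2. Treated ein2 read 2.15, 2.15 and 2.16, near the lowest value of the table, and lay 0.01 from WT at 10 h. Larger decreases came from genes outside that list. AT5G10040 stood at 3.02, 3.00 and 2.83 in treated ein2, against 9.38, 9.01 and 8.84 in untreated ein2, a change of -6.12. In WT it stood at 2.85, 2.60 and 3.02 after 10 h of elf18, against 8.80, 6.53 and 6.05 at 0 h, and in efr it changed by -3.43. AT4G10270, of the wound-responsive protein family, changed by -5.95 in ein2, -5.49 in WT and -4.54 in efr. AT4G27450 changed by -5.23 in ein2, -4.96 in WT and -5.09 in efr. All 3 were called lower in each of these lines. At 2 h of elf18 AT5G10040 was already at 3.56, 3.04 and 3.00 in ein2.

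Other large decreases included transport, wall and protease genes. AT3G29970, of the B12D family of small mitochondrial proteins, stood at 5.68, 2.47 and 2.47 in treated ein2, against 11.77, 11.28 and 11.34 in untreated ein2. Replicate 1 lay well above the other treated arrays, and the fall was 7.92 (SE 0.79) with it and 8.99 without it. AT3G21670, a low-affinity nitrate transporter gene, showed the same: 8.04, 3.84 and 5.10 in treated ein2, against 12.24, 12.06 and 12.14 in untreated ein2, a fall of 6.49 with replicate 1 and 7.68 without it. Both also fell in efr, by 7.76 and 6.64. The cysteine protease gene AT2G27420 fell by 6.89, the pectin lyase-like gene AT1G60590 by 6.79, the polygalacturonase-like gene AT1G48100 by 5.60 and the small heat shock protein gene AT1G54050 by 5.77. AT5G48490, of the lipid transfer family of DIR1, fell by 5.18 in ein2 and by 7.47 in WT, and that difference was lost without replicate 1.

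Salicylate and protein folding genes rose in small lists, with 3 of 22 and 3 of 18 genes measured. Over all probe sets 12.5% rose. All 3 measured salicylate genes rose: SAG101, a partner of EDS1 in immunity, by 2.59, UGT76B1, a glucosyltransferase that limits salicylate responses, by 2.89, and GRX480, a glutaredoxin gene induced by salicylate, by 2.85. GRX480 stood at 8.43, 8.83 and 8.59 in treated ein2, against 5.37, 6.17 and 5.75 in untreated ein2. The 3 measured genes of endoplasmic reticulum folding, ATERDJ3B, CRT1b and BZIP60, all rose, the first by 2.32 and the second by 1.42. All 6 went beyond their change in efr by the test of the difference, which called 11.1% of all probe sets higher.

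Gene families with signalling and transport roles were counted next, beside the 12.5% of all probe sets that rose and the 12.8% that fell. Of 5 measured glutamate receptor-like channel genes 4 rose, among them ATGLR1.2 by 4.35 and GLR2.7 by 3.05. GLR2.9 was at the lowest value in all untreated ein2 arrays and read 4.40, 5.76 and 3.33 after treatment. Its change of 2.42 was smaller than that of WT by 2.03 (SE 0.53, adjusted p = 0.0099). Of 5 WRKY genes 4 rose, and of 7 U-box ligase genes 4 rose and 1 fell. Of 7 calmodulin-like genes 3 rose and 1 fell, and without replicate 1 the rise of CML41 by 1.33 was lost. Among 16 vacuolar sorting and secretion genes 4 rose and 0 fell, led by SEC1B at 3.26. UDP-glycosyltransferase genes were split, with 9 of 35 higher and 7 lower (9 and 8 without replicate 1), UGT73D1 at 5.05 and UGT78D1 at -2.22. Of 13 measured cytochrome P450 genes, 12 of them named CYP71B, 5 rose and 1 fell. CYP71B23 and CYP71B24 rose by 3.82 and 3.24, and the rise of CYP71B36 by 1.11 was lost without replicate 1.

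Genes of photosynthesis, cell walls and sugar transport gave unequal counts, beside 12.8% of all probe sets lower. On the list of photosynthesis genes 1 of 8 measured members fell, LHCB4.2, and 0 rose. Of 13 genes for photosystem, light-harvesting and NDH complex subunits 5 fell and 0 rose, with a median of -0.72. LHCB4.2, a light-harvesting protein gene, stood at 12.20, 10.92 and 11.17 in treated ein2, against 13.47, 13.77 and 13.67 in untreated ein2. It fell by 2.21 in ein2, 2.98 in efr and 4.56 in WT, and the ein2 fall was the smaller one against WT by 2.35 (SE 0.32, adjusted p = 2.7e-06). Of 8 xyloglucan endotransglucosylase genes 4 fell and 1 rose. The rise, at XTH20, was lost without replicate 1, since the treated arrays read 8.19, 7.07 and 6.60, against 5.25, 6.77 and 6.02 in untreated ein2. XTH19 changed by -0.88 in ein2, which did not pass, and fell by 3.26 in WT, a difference of 2.38 (SE 0.29, adjusted p = 5.7e-07). Of 5 SWEET sugar transporter genes 3 fell, led by SWEET2 at -2.34, and 2 of 3 aliphatic glucosinolate genes fell, BCAT4 by 1.16 and AT2G31790 by 1.27.

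In whole-seedling RNA, fewer cells of a type and less RNA per cell cannot be told apart. The root markers PYK10 and EXPA7 changed by -0.16 and 0.08 in ein2, and neither passed the test. The shoot marker CaS, a thylakoid calcium-sensing protein gene, stood at 10.30, 8.94 and 9.19 in treated ein2, against 12.06, 12.39 and 12.36 in untreated ein2. It fell by 2.79 in ein2, 3.83 in WT and 1.22 in efr. The ein2 fall was called smaller than that of WT, by 1.04, a call that was lost without replicate 1. With 1 shoot and 2 root markers measured, the part of tissue proportions in the results was not tested.

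**Figure D3:**
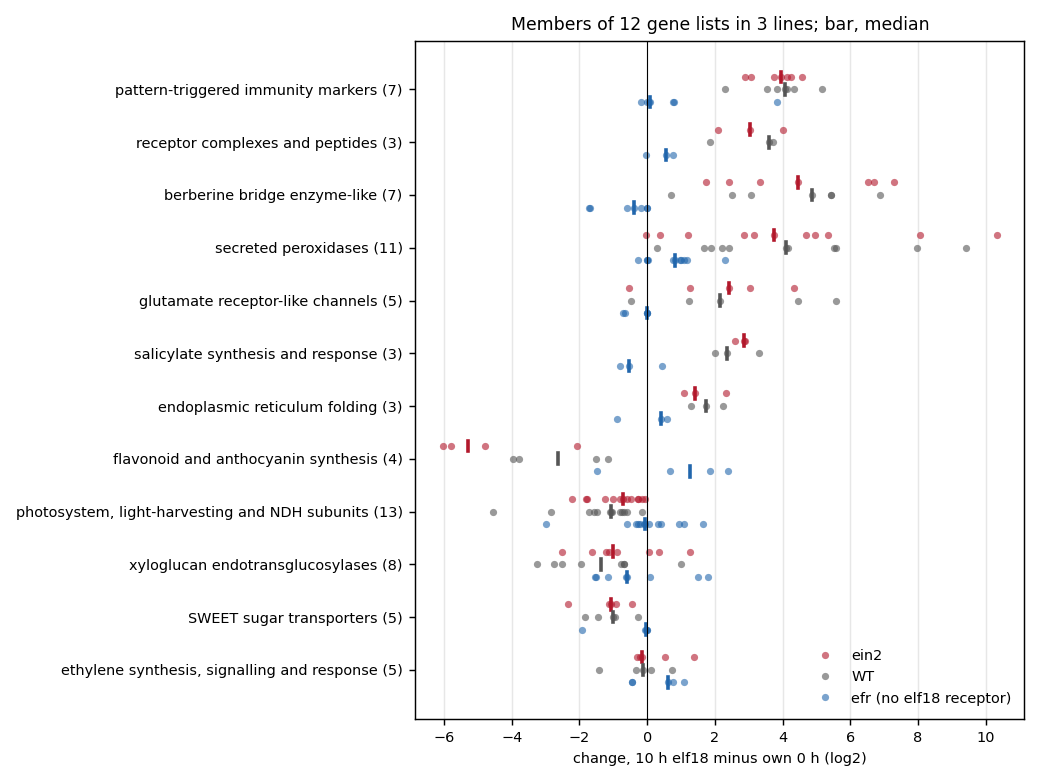
Change at 10 h of elf18 against 0 h of the same line (log2, x axis) for every measured member of 12 gene lists, with the number of members in brackets; points are genes in ein2 (red), WT (grey) and efr (blue), and bars are medians. The anthocyanin genes lie lowest in ein2, with a median of -5.30, while the immunity markers have medians of 3.95 in ein2 and 4.07 in WT.

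The list of ethylene synthesis, signalling and response genes had 5 measured members of 36. Of these, 1 was called higher with all arrays and 0 without replicate 1, beside 12.5% and 12.8% of all probe sets. With 5 genes, such counts cannot set the list apart from that share. EIN3, the transcription factor gene downstream of EIN2, read 9.33, 9.47 and 9.44 in treated ein2, against 9.75, 9.55 and 9.42 in untreated ein2, and those groups overlapped. PDF1.2, a defensin gene that needs both ethylene and jasmonate signals, read 8.20, 6.66 and 6.62 in treated ein2, against 4.79, 9.25 and 8.06 in untreated ein2. Its untreated arrays spanned the treated ones, and the change of -0.21 had an SE of 0.77. ARL was called higher with all arrays (1.37, SE 0.56, adjusted p = 0.032) and not without replicate 1 (-0.23, adjusted p = 0.44). RTE1, which acts with an ethylene receptor, changed by -0.31 in ein2 and 0.72 in WT, and the difference of -1.03 (SE 0.32, adjusted p = 0.029) was called.

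The response differed widely from that of seedlings that lack the elf18 receptor. The ein2 response was higher than the efr response at 1619 probe sets and lower at 1956, which is 11.1% and 13.4% of those tested and includes probe sets that changed in efr alone. Over the 1828 probe sets higher in ein2 the median change was 1.85 in ein2, 1.87 in WT and 0.297 in efr. Over the 1868 lower ones it was -1.51 in ein2, -1.43 in WT and -0.524 in efr. Of the increases 408 were also called higher in efr, 22.3% of the ein2 list and 34.6% of the 1178 in efr. Among the decreases 630 were shared, 33.7% of the ein2 list and 60.8% of the 1037 in efr, where 7.12% of all probe sets fell. These 2 lists come from separate arrays, but both lines passed from 0 h to 10 h.

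The widest differences from efr were of both kinds. AT1G57630, for a protein with a TIR domain, stood at 10.57, 11.08 and 10.62 in treated ein2, against 4.49, 4.39 and 3.47 in untreated ein2, while it fell by 2.24 in efr, a difference of 8.88 (SE 0.64, adjusted p = 3e-14). AT4G01130, a GDSL lipase gene, was at 2.08 in all 3 treated ein2 arrays and rose by 5.00 in efr, to 7.07, 7.11 and 7.16. AT4G34950, of the major facilitator transporter family, stood at 8.88, 8.91 and 8.72 in treated ein2, against 10.22, 9.66 and 9.63 in untreated ein2, and rose by 4.85 in efr. Clock-related transcripts did not differ in this way: COR27 rose by 6.53 in ein2, 6.39 in WT and 7.01 in efr, and its relative AT4G33980, also known as COR28, by 4.92, 4.53 and 5.10. GI, a clock gene, changed by -0.07 in ein2 and -0.38 in efr, and fell by 1.07 in WT. The difference of 1.005 between its responses in ein2 and WT was called.

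Responses of ein2 and WT ran mostly together. Of the 1828 probe sets higher in ein2 1509 were also higher in WT, 82.5% of the ein2 list and 77.3% of the WT list, and 4 were lower there (13.4% of all probe sets were higher in WT and 13.5% lower). Of the 1868 lower in ein2 1393 were lower in WT, 74.6% and 70.7% of each list, and 2 were higher. Across the 14568 probe sets the changes of ein2 and WT correlated at 0.91, and those of ein2 and efr at 0.416, as descriptions over probe sets of the same arrays that are not independent. On the WT change at probe sets called in that line, the change of each treated ein2 array had a slope through 0 of 0.825, 0.947 and 0.910. Their mean was 0.894 ± 0.0626 (SD, n = 3), and 0.928 without replicate 1. All 3 slopes share the untreated ein2 mean and the WT change, so the SD leaves out the spread of those arrays. The probe sets were chosen by the WT change, which can lower such a slope. Replicate 1 had the lowest slope, and its shortfall was at the decreases, with 0.699 against 0.924 and 0.889, more than at the increases, with 0.908 against 0.963 and 0.923.

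By the test of the difference, the ein2 response was higher than the WT response at 369 probe sets and lower at 290, which is 2.53% and 1.99% of those tested. Without replicate 1 the counts were 334 and 318 (2.29% and 2.18%). They leaned more on 1 untreated array: without replicate 1 of ein2 at 0 h they were 266 and 191. Of the 369 higher, 197 were called higher in ein2 than in WT at 10 h and not called lower at 0 h. Another 85 were called lower in ein2 at 0 h and not called higher at 10 h. Of the 290 lower, 114 were called lower in ein2 at 10 h and not called higher at 0 h. Another 67 were called higher at 0 h and not called lower at 10 h. The 197 and the 114 include transcripts that already differed in the same direction at 0 h. In 87 of the higher and 105 of the lower calls, neither the level at 10 h nor the opposite level at 0 h was called. Both were called in 4 of the lower ones. At 10 h alone 3.66% of all probe sets were higher in ein2 than in WT and 2.66% lower, and at 0 h 2.29% were higher and 2.24% lower. The 3 tests share arrays, so these counts only sort the calls.

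Some genes rose in ein2 and not in WT, or rose more in ein2. AT5G62330 stood at 7.45, 7.22 and 6.75 in treated ein2, against 2.08, 2.23 and 4.49 in untreated ein2, and at 2.08 in WT after 10 h of elf18. Its responses differed by 4.89 (SE 0.68, adjusted p = 4.1e-06). AT5G59490 stood at 7.14, 7.32 and 6.24 in treated ein2, against 3.64, 3.94 and 3.75 in untreated ein2, and changed by 0.09 in WT. AT5G22555 rose by 5.60 in ein2 and by 2.06 in WT. Other genes fell in WT and kept their level in ein2 without passing the test: the dirigent gene AT4G11190 stood at 10.42, 10.88 and 10.13 in treated ein2, against 9.92, 10.81 and 10.32 in untreated ein2, and fell by 3.24 in WT. AT3G59370 changed by -0.43 in ein2 and fell by 3.59 in WT. M17, a late embryogenesis abundant protein gene, fell by 1.47 in ein2 and 5.82 in WT, but both lines ended near the lowest value and untreated ein2 was lower by 3.83. AT2G39400 ended at 10.90 in ein2 and 11.17 in WT, and its difference of 3.25 came with a level 3.51 lower in untreated ein2.

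Other genes rose far more in WT than in ein2, where most stayed near the lowest value. NRT2.5, a high-affinity nitrate transporter gene, stood at 2.12, 4.32 and 2.54 in treated ein2, against 2.08 in all untreated ein2 arrays, and averaged 8.42 ± 0.57 (SD, n = 3) in WT after 10 h of elf18. The responses differed by -5.42 (SE 0.38, adjusted p = 6.7e-13), and without replicate 1 the small ein2 change passed the test as a rise. In efr NRT2.5 stayed at 2.09. AT4G28420, of the tyrosine transaminase family, stood at 2.33, 2.15 and 2.31 in treated ein2 and at 7.05 ± 0.24 (SD, n = 3) in WT after 10 h, a difference in response of -4.78 (SE 0.26, adjusted p = 1.4e-16). AT1G21320 and AT5G39520 changed by 0.10 and -0.01 in ein2 and rose by 2.98 and 2.93 in WT. The U-box gene AT3G61390 rose by 1.05 in ein2 and by 3.89 in WT.

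A further set was higher in untreated ein2 and fell after treatment. AT3G21660, for a UBX domain protein, was at 2.08 in all treated arrays of ein2 and WT, against 6.26, 5.74 and 5.21 in untreated ein2 and at most 3.77 in untreated WT. AT1G63530 fell by 2.59 in ein2 and changed by 0.78 in WT. AT3G15310 was at 2.08 in all treated ein2 arrays, and its fall of 5.73 was larger than that of WT by 2.34, with a level 2.32 higher in untreated ein2.

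**Figure D4:**
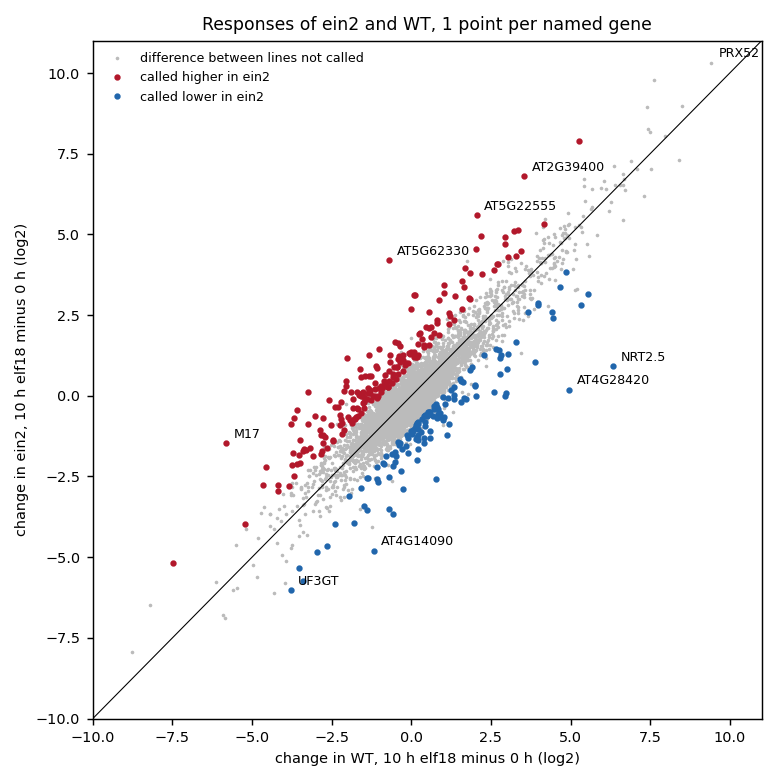
Change in ein2 (y axis) against change in WT (x axis), each at 10 h of elf18 minus 0 h (log2), for the 7791 named genes; red and blue points are genes whose response was called higher or lower in ein2 than in WT, and the line marks equal change. PRX52 lies near the line at the upper end, AT5G62330 is above it and NRT2.5 below it.

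The response at 10 h differed from that at 2 h. In ein2, 759 probe sets were higher at 10 h than at 2 h and 709 were lower, which is 5.21% and 4.87% of those tested, and 832 and 850 (5.71% and 5.83%) without replicate 1. COR27 stood at 2.16, 3.14 and 2.16 at 0 h, at 2.08 in all arrays at 2 h and at 8.35, 9.36 and 9.34 at 10 h, a difference between 10 h and 2 h of 6.93 (SE 0.21, adjusted p = 1e-25). AT1G19960 rose by 6.35 between these times, AT5G22555 by 5.17 and AT5G03350, a lectin gene, by 4.94. AT5G03350 stood at 7.74, 8.34 and 8.14 at 0 h, at 8.25, 7.89 and 7.41 at 2 h and at 12.39, 12.94 and 13.02 at 10 h, so that only the last group stood apart. It changed by 0.06 in efr at 10 h.

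Early and late genes could be told apart among the immune transcripts. PRX52 stood at 9.29, 8.88 and 7.93 at 2 h, between its levels at 0 h and 10 h. AT1G26380 was higher at 2 h, with 11.06, 10.72 and 11.08, than at 10 h, with 10.07, 9.24 and 8.26 (a difference of -1.76, SE 0.57, adjusted p = 0.012). GRX480 and UGT76B1 were late, with changes of 0.04 and 0.02 at 2 h. DFR was at 9.40, 9.24 and 8.64 at 2 h, close to its level at 0 h, and lower by 5.32 at 10 h (SE 0.65, adjusted p = 2e-08). AT5G48570, for a heat-inducible FKBP-type immunophilin, stood at 10.79, 10.23 and 9.60 at 0 h, at 11.81, 11.61 and 11.34 at 2 h and at 8.65, 6.93 and 7.09 at 10 h, the lowest of the 3 times. AT1G69570, a Dof transcription factor gene of the CDF group, was lower by 4.07 at 10 h than at 2 h, and it fell by 2.15 in efr at 10 h as well.

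**Figure D5:**
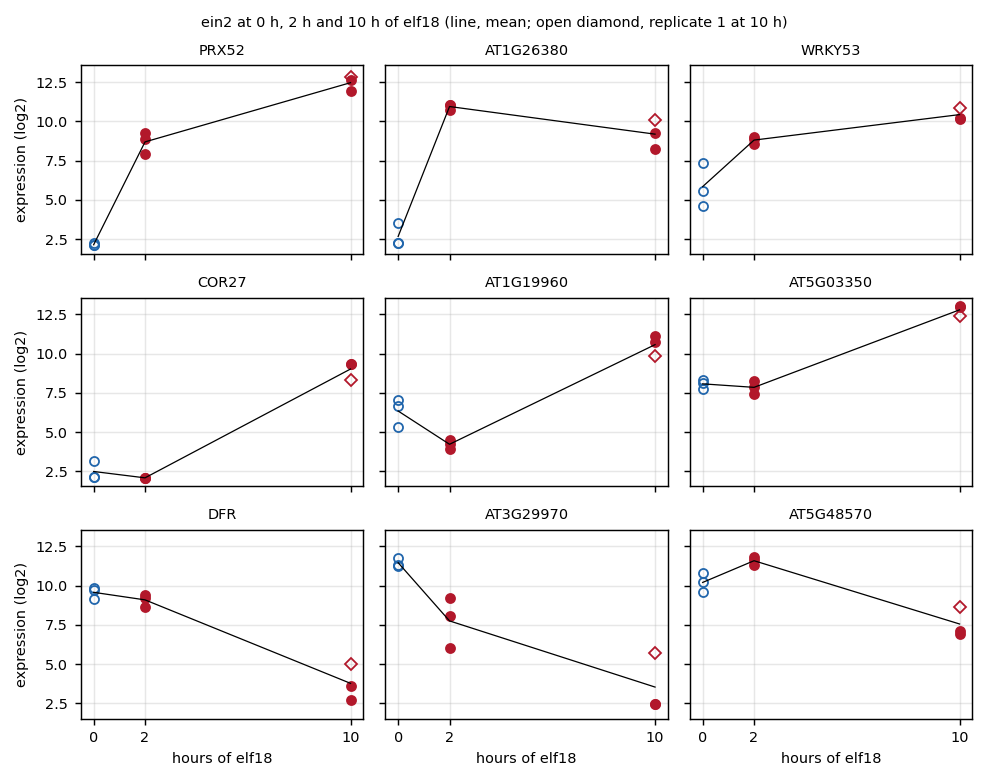
Expression (log2, y axis) of 9 genes in ein2 at 0 h (open blue circles), 2 h and 10 h of elf18 (filled red points, with an open diamond for replicate 1 at 10 h); lines join the means of 3 arrays, and the x axis is hours of elf18. PRX52 rises at both steps, COR27 stands at 2.08 at 2 h and up to 9.36 at 10 h, and DFR is lower only at 10 h.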

How the data were processed

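RNA from seedlings was measured on 51 ATH1 arrays (Affymetrix), in 17 groups of 3. The authors deposited log2 values per probe set, computed with GCRMA, which corrects background, normalises and summarises probes, per the submitters' processing notes; its version and options are not given in the sources used here. The table holds 22746 probe sets and 64 controls, of which the annotation table pairs 13513 with 1 gene, 503 with several and 8730 with none. Gene names come from that table, which is not complete, and product descriptions are general knowledge.

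The test took in probe sets with 3 or more arrays at log2 5 or above (14568, of which 7828 have 1 gene) and used limma 3.58.1 in R 4.3.3. The fit had a mean per group over all arrays, 34 residual and 3.84 prior degrees of freedom, and Benjamini-Hochberg adjustment over all probe sets in each comparison. The 4 comparisons were the ein2 response, its differences from the WT and efr responses, and 10 h against 2 h. With several probe sets per gene, the one with the highest mean over all arrays was used. The procedure was tested on simulated data. Replicate numbers were checked for pairing: residuals of same-numbered arrays correlated at -0.0542 to 0.117 in the ein2 response, -0.0542 to 0.295 with WT, -0.35 to 0.353 with efr and -0.0908 to 0.197 between 10 h and 2 h. Not every pair passed 0.1 in any of them, so the numbers were not taken as pairs. Python 3.11.15 with matplotlib 3.10.9 made the figures.

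The named genes are EFR and BIK1, the 15 largest increases and decreases of the response whose arrays did not overlap, the 8 largest differences from WT and the 5 largest from efr and from 2 h in each direction, the 6 genes with the widest gap of replicate 1 on each side, and up to 4 members of each list. A few more list members and AT1G26390 are named because their call changed or because the list has few members, after their values were seen. Lists came from general knowledge, and families from the symbols of the annotation table. The comparison, members and lists were chosen with earlier results of these data known. Promoter sequences and the jasmonate and camalexin lists (0 and 1 measured members) were not used here. The low-oxygen, shoot and root lists (1, 1 and 2 measured members) are given gene by gene.

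The alternatives were no filter on low values, a stricter one at log2 7, a prior variance that follows intensity, fits restricted to the compared groups, a block on replicate number, median centring, quantile normalisation, no fold minimum, array weights, leaving out each array, and leaving out replicate 1 of the treated group in a fit of only the groups compared.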

Additional observations from a re-analysis of the deposited data

Results flagged for a closer look

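The ein2 response at 10 h of elf18 differed from that of WT at 659 probe sets, from that of efr at 3575, and from the level at 2 h at 1468, each by the test of the difference itself. The values below are log2 differences for the genes named from each comparison, and no cause of any of them was tested.

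Higher in the ein2 response than in the WT response were AT5G62330 by 4.89, M17 by 4.34, AT5G22555 by 3.54, the dirigent gene AT4G11190 by 3.37, AT2G39400 by 3.25, AT5G62280 by 3.18, AT3G59370 by 3.17 and AT5G59490 by 3.03. AT5G62280 read 6.63, 4.49 and 5.48 in treated ein2, against 3.64, 4.72 and 4.78 in untreated ein2, so that its own rise rested on replicate 1. Lower in ein2 were NRT2.5 at -5.42, AT4G28420 at -4.78, AT4G14090 at -3.62, AT1G63530 at -3.37, AT3G21660 at -3.09, AT5G39520 at -2.93, AT1G21320 at -2.88 and AT3G61390 at -2.83. At AT4G14090 untreated ein2 was higher than untreated WT by 3.93, so that WT had less room to fall.

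Against efr, the widest differences upward were 10.31 at PRX52, 9.27 at AT3G18250, 8.88 at AT1G57630, 8.38 at AT1G26420 and 8.23 at AT1G26380. Downward they were -7.65 at DFR, -7.20 at AT4G14090, -6.70 at UF3GT, -5.90 at AT4G01130 and -5.85 at AT4G34950. At the last pair of genes the difference lay mainly in efr, where they rose by 5.00 and 4.85.

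Between 10 h and 2 h, the differences in ein2 were 6.93 at COR27, 6.35 at AT1G19960, 5.17 at AT5G22555, 4.94 at AT4G33980 and 4.94 at AT5G03350. In the other direction they were -5.32 at DFR, -4.41 at AT1G54050, -4.21 at AT3G29970, -4.07 at AT1G69570 and -4.03 at AT5G48570.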

How the results depend on the processing

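All 30 genes with the largest changes kept their call in the 16 alternatives run for the response, apart from 1 gene that was not tested under the filter at log2 7. They were picked for large called changes with arrays that did not overlap, so the kept calls say little about smaller changes. Without a fold minimum, 4057 probe sets were higher and 5255 lower in the response, 737 and 987 in the difference from WT, 2964 and 3940 in the difference from efr, and 2708 and 3286 between 10 h and 2 h. This follows from the looser rule. Leaving out 1 array at a time gave 1792 to 1866 higher and 1788 to 1938 lower in the response, 266 to 409 and 191 to 346 against WT, 1556 to 1666 and 1885 to 2016 against efr, and 735 to 832 and 641 to 850 between 10 h and 2 h. The lowest pair against WT came without replicate 1 of ein2 at 0 h, and the cause was not tested. With the replicate number as a block the counts were 1831 and 1869, 394 and 316, 1627 and 1967, and 761 and 712, and no call of the 30 genes changed. The other settings gave 1548 to 1925 and 1508 to 1970 in the response. Without replicate 1 of treated ein2, 12.8% of all probe sets were higher and 13.3% lower. In that fit 0 ethylene genes (1 with replicate 1) and 1 beta-glucosidase gene (2 with it) were higher. The same fit had 0 xyloglucan endotransglucosylase genes higher (1 with it) and 0 auxin genes lower (1 with it). LCR67, a defensin-like gene, was called lower only without replicate 1. By smaller shares, 6 berberine bridge enzyme-like genes (7 with it), 4 cytochrome P450 genes (5 with it) and 2 calmodulin-like genes (3 with it) were higher, and 8 UDP-glycosyltransferase genes were lower (7 with it). Centring or quantile normalisation moved the median change of all probe sets by less than 0.1. Transcripts at the lowest value have no measured order.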

Other observations

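Further families were counted beside the 12.5% of all probe sets that rose and the 12.8% that fell. Of 15 serine carboxypeptidase-like genes 1 fell and 0 rose, and of 7 tetraspanin genes 1 rose, TET8 by 1.48, and 0 fell. Among 17 trichome birefringence-like genes, which modify wall polysaccharides, 3 fell, led by TBL26 at -3.50, and 1 rose, TBL15 at 3.70. Of 12 glutathione transferase genes 4 fell and 2 rose. GSTU16 fell by 2.51 in ein2 and changed by -0.70 in WT, a difference in response that was called, while GSTU25 rose by 1.59 in ein2 and changed by 0.20 in WT, which was called in the other direction. The auxin amido synthetase gene GH3.3 stood at 8.34, 8.19 and 8.36 in treated ein2, against 3.98, 3.85 and 4.05 in untreated ein2, and rose by 4.33. PDF2.1, a defensin gene, rose by 4.69 in ein2 and by 4.32 in efr. BGLU40, a beta-glucosidase gene, read 6.47, 4.34 and 4.34 in treated ein2, against 9.33, 9.36 and 8.88 in untreated ein2.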
